A study of Mus musculus with 12 samples.

Results

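The TRAF adaptors, the cellular inhibitors of apoptosis and A20 form the set of signalling genes that sits just inside the receptors of the TNF, CD40 and Toll-like families. The set was chosen by gene symbol and lists 8 genes, Traf1, Traf2, Traf3, Traf5, Traf6, Birc2, Birc3 and Tnfaip3. Earlier results of these data were known at that choice, so counts over the set are a description and no independent test. A gene was measured where a probe set carried its symbol and no other gene, which held for 7 of the 8, among 19937 genes so named on the array. Traf3 had no such probe set and was not analysed here. Birc2 had more than 1, and the one with the highest mean over the 12 arrays was used.

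Mouse bone marrow was cultured for 7 days with GM-CSF at 200 ng/ml, a cytokine that drives dendritic cell growth, and the dendritic cells were then enriched with beads that bind CD11c. The 12 arrays fall into 4 groups of 3. They are IL-2 knockout cells given curdlan for 6 h, wild-type cells given curdlan for 6 h, untreated IL-2 knockout cells and untreated wild-type cells. The strain is given as B6.129P2-Il2tm1Hor/J for every array, wild type included, and the titles give the genotype used here. Neither the animals' age nor a separate animal for each replicate is stated, so a p-value reflects only how much these arrays varied, which may be technical.

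As background, TRAF proteins bind the tails of TNF-family receptors or the adaptors of Toll-like and IL-1 receptors and bring in ubiquitin ligases. TRAF2 carries the ligases cIAP1 (gene Birc2) and cIAP2 (gene Birc3), whose ubiquitin chains hold RIPK1 and the kinases that free NF-kB. With TRAF3, the same ligases keep the kinase NIK low in resting cells. A20 (gene Tnfaip3) edits these chains and ends the signal, and it is itself a target of NF-kB. Curdlan is a beta-glucan that binds Dectin-1 (gene Clec7a), which signals through Syk and Card9 to NF-kB. The design crosses this stimulus with loss of IL-2, a cytokine best known as a T cell growth factor.

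The genes lie on 5 chromosomes in GRCm38.p6. Traf1 is on chromosome 2 between 34941750 and 34961812, Traf2 on chromosome 2 between 25517982 and 25546940, and Traf6 on chromosome 2 between 101678420 and 101701668. Traf5 is on chromosome 1 between 191997203 and 192092599. Birc2 (chromosome 9, 7818226 to 7837131) and Birc3 (chromosome 9, 7847468 to 7873205) are neighbours. Tnfaip3 is on chromosome 10 between 19000910 and 19015410, and Traf3 on chromosome 12 between 111166321 and 111267155.

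RefSeq promoter windows of 300 bases, from 250 before to 50 after a transcript start, matched all 8 genes and gave 10 windows. They were searched on both strands for the NF-kB consensus and for TGANTCA, a core that AP-1 factors bind. The NF-kB consensus was found in 8.46% and TGANTCA in 7.81% of all 32851 windows of this length. Among the 10 windows of these genes, matches were found in 1 of the windows of Tnfaip3 and in the window of Traf3. The windows of Traf1 and Tnfaip3 are shown because these genes had the largest curdlan differences. Capitals mark matches, and the sequences read in the direction of transcription, on the minus strand of chromosome 2 at chr2:34961723-34962022 and of chromosome 10 at chr10:19015361-19015660.
Traf1: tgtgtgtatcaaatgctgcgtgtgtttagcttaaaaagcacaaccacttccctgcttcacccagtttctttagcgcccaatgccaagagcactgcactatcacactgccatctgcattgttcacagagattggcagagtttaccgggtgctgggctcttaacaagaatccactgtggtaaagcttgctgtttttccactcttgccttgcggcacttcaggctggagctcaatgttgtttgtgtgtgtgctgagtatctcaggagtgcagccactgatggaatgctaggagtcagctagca
Tnfaip3: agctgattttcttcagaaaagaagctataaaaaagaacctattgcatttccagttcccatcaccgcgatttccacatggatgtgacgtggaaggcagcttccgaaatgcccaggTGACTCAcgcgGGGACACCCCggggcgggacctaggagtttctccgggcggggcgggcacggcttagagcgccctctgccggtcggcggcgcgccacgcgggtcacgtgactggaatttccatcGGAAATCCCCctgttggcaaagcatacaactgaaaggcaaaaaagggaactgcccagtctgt
The Tnfaip3 window held TGACTCA at position -136 from the transcript start, GGGACACCCC at -125 and GGAAATCCCC at -12, each counted at its first base. The Traf1 window held neither motif, as did the windows of Traf2, Traf5, Traf6, Birc2 and Birc3. In the Traf3 window, GGGGATTTCC stood at position -10. A match describes the letters and does not show binding.

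Values are log2 intensities, 1 per gene and array, and a difference of 1 on this scale is a doubling. The deposited arrays had medians from 6.59 to 6.64 and lower quartiles from 5.08 to 5.15. The disrupted gene Il2 stayed between 5.63 and 5.87 on the 3 curdlan-treated knockout arrays, against 6.74 to 7.80 on the 3 curdlan-treated wild-type arrays (-1.48, adjusted p 0.0114, limma). In untreated cells the order was the other way, at 6.04, 5.88 and 5.77 on knockout arrays, against 5.56, 5.37 and 5.53 on wild-type arrays (0.41, adjusted p 0.524), all below the median gene. Il2 therefore checks the genotype labels in treated cells only. Clec7a was between 12.5 and 12.7 on average in all 4 groups and passed no contrast. Of 9 dendritic cell markers, Itgax, H2-Ab1, H2-Aa and Cd74 averaged between 12.9 and 13.3 in every group, while Zbtb46 averaged 7.55 to 8.29 and Flt3 6.78 and 6.89 in untreated knockout and wild-type cells. The macrophage list averaged 11.33 to 11.68 over all arrays, overlapping the dendritic cell list at 10.73 to 11.49. Mean levels of the neutrophil, T cell, B cell, NK cell, mast cell and erythroid marker lists lay between 5.09 and 6.07 on all arrays, where the median gene averaged 6.96. Single markers of these lists lay above the median gene. S100a8 averaged 7.57 to 7.78 over the groups and Kit 7.54 to 8.24, with Kit at 7.64 in untreated knockout and 8.24 in untreated wild-type cells. With curdlan, Hdc averaged 7.19 in knockout and 7.68 in wild-type cells, and Klrk1 7.09 and 7.36. In bulk RNA, fewer cells that express a gene and less RNA per cell cannot be told apart.

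Curdlan raised all 7 measured genes in both genotypes. Traf1 and Tnfaip3 about doubled, while Traf2, Traf5, Traf6, Birc2 and Birc3 rose by less than 1 on the log2 scale. In knockout cells 7 of 7 passed an adjusted p of 0.05 upward, where 9.29% of all genes did and 22.5% passed in either direction (limma, Benjamini-Hochberg over all genes). In wild-type cells 7 of 7 passed upward, where 7.27% of all genes did and 19.6% passed in either direction. The median log2 difference of the 7 genes was 0.54 in knockout and 0.56 in wild-type cells, against 0.04 and 0.02 over all genes. The shares over all genes rest on single arrays too, with 10.2% to 26.5% passing in knockout cells (lowest without curdlan-treated knockout array 2) and 13.2% to 20.1% in wild-type cells (lowest without curdlan-treated wild-type array 1). Curdlan-treated and untreated arrays did not overlap for 6 of 7 genes in knockout cells (19.4% of all genes were higher without overlap) and for 7 of 7 in wild-type cells (17.0%). Birc2 in knockout cells was the exception.

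**Figure D1:**
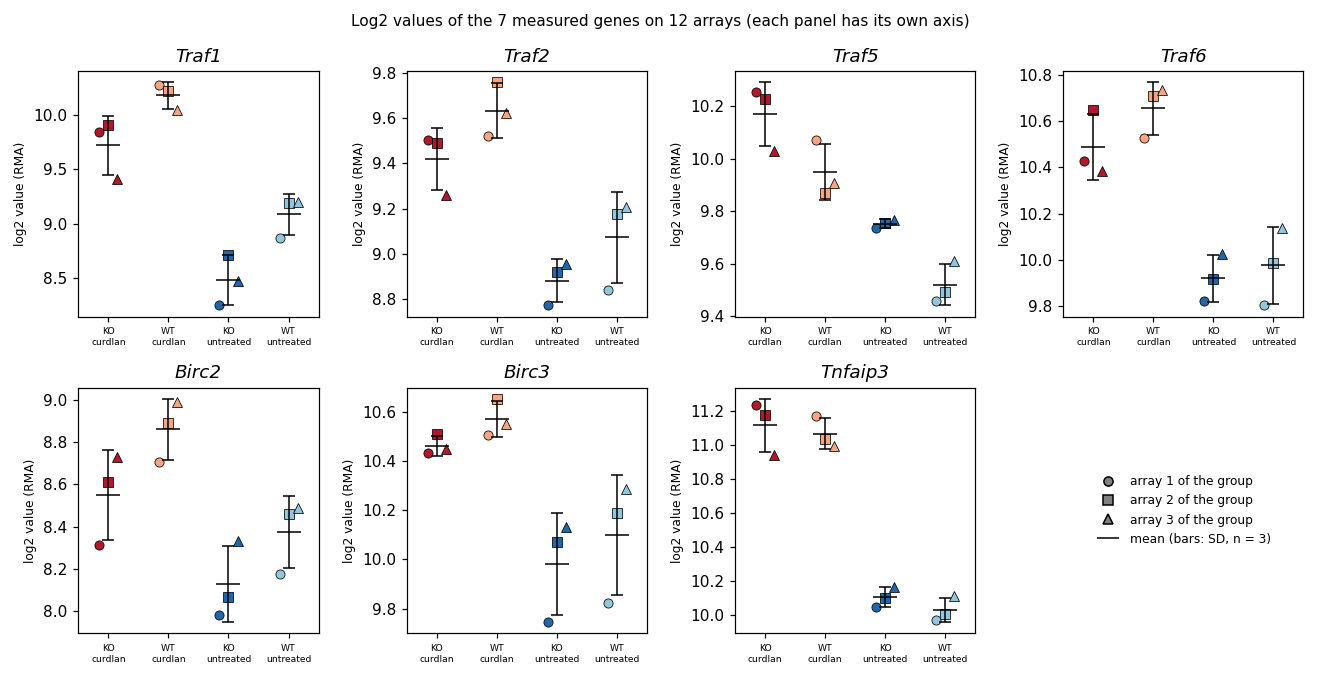
Log2 values (vertical axis, a separate scale in each panel) of the 7 measured genes in curdlan-treated knockout, curdlan-treated wild-type, untreated knockout and untreated wild-type cells. Points are single arrays, marked by replicate number, and bars are the mean and SD (n = 3). For each gene, both curdlan-treated means lie above both untreated means.

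Traf1 encodes an adaptor that lacks the RING finger of the other TRAFs and works as a partner of TRAF2. In knockout cells it had values of 9.84, 9.90 and 9.41 with curdlan, against 8.25, 8.72 and 8.48 untreated. In wild-type cells it had 10.28, 10.22 and 10.04 with curdlan, against 8.87, 9.19 and 9.20 untreated. Every treated array lay above every untreated array of its genotype, and the lowest treated knockout array lay above the highest untreated wild-type array. The rise was 1.24 ± 0.15 (SE, 2.36-fold, adjusted p 0.000295) in knockout cells and 1.09 ± 0.15 (SE, 2.13-fold, adjusted p 0.000552) in wild-type cells.

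Traf2 encodes the RING adaptor that carries the cIAPs to TNF receptors. It had values of 9.50, 9.49 and 9.26 in knockout cells with curdlan, against 8.77, 8.92 and 8.95 in untreated knockout cells. Wild-type cells gave 9.52, 9.76 and 9.62 with curdlan, against 8.84, 9.17 and 9.21 untreated. The groups did not overlap in either genotype. Traf2 rose by 0.54 ± 0.11 (SE, 1.45-fold, adjusted p 0.00562) in knockout cells and by 0.56 ± 0.11 (SE, 1.47-fold, adjusted p 0.00395) in wild-type cells. The knockout call was lost without both knockout arrays numbered 1 (0.44, adjusted p 0.0897; range over 18 alternatives 0.00143 to 0.0897).

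Traf5 encodes an adaptor close to TRAF2 that also binds TNF-family receptors. Its values were 10.25, 10.23 and 10.03 in curdlan-treated knockout cells, against 9.74, 9.76 and 9.77 in untreated knockout cells. In wild-type cells they were 10.07, 9.87 and 9.91 with curdlan, against 9.46, 9.49 and 9.61 untreated. The untreated knockout arrays differed by less than any other group of this gene (SD 0.016). Traf5 rose by 0.42 ± 0.07 (SE, 1.33-fold, adjusted p 0.00325) in knockout cells and by 0.43 ± 0.07 (SE, 1.35-fold, adjusted p 0.00242) in wild-type cells. Without both knockout arrays numbered 1 the knockout value was 0.37 (adjusted p 0.0566; range over 18 alternatives 0.00108 to 0.0566).

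Traf6 encodes the ubiquitin ligase of the Toll-like and IL-1 receptor pathways, which CD40 also uses. Knockout cells had 10.43, 10.65 and 10.38 with curdlan, against 9.82, 9.92 and 10.02 untreated. Wild-type cells had 10.52, 10.71 and 10.73 with curdlan, against 9.80, 9.99 and 10.14 untreated. The treated arrays lay above the untreated ones in both genotypes. The rise was 0.57 ± 0.10 (SE, 1.48-fold, adjusted p 0.00302) in knockout cells and 0.68 ± 0.10 (SE, 1.60-fold, adjusted p 0.00089) in wild-type cells.

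Birc2 encodes cIAP1, a ligase that limits cell death from TNF receptors. In knockout cells it had 8.32, 8.61 and 8.73 with curdlan, against 7.99, 8.07 and 8.33 untreated, and 1 treated array lay below the highest untreated one. In wild-type cells it had 8.70, 8.89 and 8.99 with curdlan, against 8.18, 8.46 and 8.49 untreated, without overlap. Birc2 rose by 0.42 ± 0.13 (SE, 1.34-fold, adjusted p 0.036) in knockout cells and by 0.48 ± 0.13 (SE, 1.40-fold, adjusted p 0.0209) in wild-type cells. These were the least stable calls of the set. The knockout call was lost under 9 of 18 alternatives, including without curdlan-treated array 2 (adjusted p 0.116) or 3 (0.0929) and without untreated array 1 (0.135) or 2 (0.0731), over a range of 0.00121 to 0.171. The wild-type call was lost under 6 of 18, including without curdlan-treated array 2 (0.06) or 3 (0.0698) and without untreated array 1 (0.0846), over a range of 0.000522 to 0.0913. With the replicate number as a block both calls were kept (0.00121 and 0.000522). A second probe set of Birc2 differed by 0.29 ± 0.09 (SE, adjusted p 0.056 over 34760 probe sets) in knockout cells and by 0.24 ± 0.09 (SE, adjusted p 0.128) in wild-type cells, the same direction and past no threshold.

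Birc3 encodes cIAP2, the close relative of cIAP1 and a known NF-kB target. It had 10.43, 10.51 and 10.45 in knockout cells with curdlan, against 9.74, 10.07 and 10.13 in untreated knockout cells. Wild-type cells gave 10.51, 10.65 and 10.55 with curdlan, against 9.82, 10.19 and 10.29 untreated. The treated arrays lay close together (SD 0.040 and 0.075) and the untreated ones farther apart (SD 0.21 and 0.24). Birc3 rose by 0.48 ± 0.12 (SE, 1.40-fold, adjusted p 0.016) in knockout cells and by 0.47 ± 0.12 (SE, 1.39-fold, adjusted p 0.0175) in wild-type cells. In knockout cells the call was lost without curdlan-treated array 2 (0.0622), untreated array 1 (0.0661) or both arrays numbered 1 (0.127) or 2 (0.0635), over a range of 0.00483 to 0.127. In wild-type cells it was lost without curdlan-treated array 2 (0.0616), untreated array 1 (0.0579) or both arrays numbered 1 (0.0831) or 2 (0.0894), over a range of 0.0053 to 0.0894.

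Tnfaip3 encodes A20, the inhibitor of the set, which removes and replaces the ubiquitin chains built by TRAF6 and the cIAPs. In knockout cells it had 11.24, 11.18 and 10.94 with curdlan, against 10.05, 10.10 and 10.17 untreated. In wild-type cells it had 11.17, 11.03 and 10.996 with curdlan, against 9.97, 10.00 and 10.11 untreated. All 6 treated arrays lay above all 6 untreated arrays. The rise was 1.01 ± 0.08 (SE, 2.02-fold, adjusted p 1.77e-05) in knockout cells and 1.04 ± 0.08 (SE, 2.06-fold, adjusted p 9.89e-06) in wild-type cells, the smallest adjusted p of the 7 genes in both. Its window, printed above, was the only one of the measured genes with a match to either motif.

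**Figure D2:**
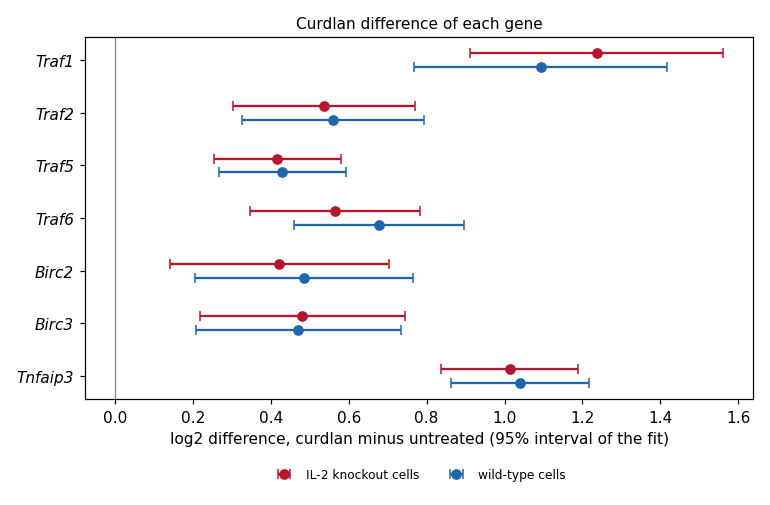
Log2 difference, curdlan minus untreated (horizontal axis), of each gene in knockout and in wild-type cells. Points are the fitted differences and bars their 95% intervals, all of which lie above 0.

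Over all genes, treated and untreated arrays of the same number deviated together within each genotype. This did not hold for every gene of the set. Tnfaip3 fell from number 1 to 3 with curdlan and rose untreated, in knockout and in wild-type cells. All 7 genes were higher with curdlan in each of the 3 numbered pairs of each genotype. Except for Birc2 in knockout cells, this follows from the lack of overlap given above and adds nothing to it. The share of all genes higher in every pair was not counted. The rise of Traf1 in pairs 1, 2 and 3 was 1.59, 1.19 and 0.93 in knockout cells and 1.41, 1.03 and 0.84 in wild-type cells. The rises of Traf2, Traf5, Birc3 and Tnfaip3 also shrank from number 1 to 3 in both genotypes. That of Traf6 did so only in wild-type cells, and that of Birc2 in neither. Among untreated arrays, number 1 was the lowest of its group in both genotypes for 7 of 7 genes, against 2648 of 19937 genes (13.3%). The same held for 5 of 10 NF-kB subunit and inhibitor genes and 5 of 9 dendritic cell markers. Among treated arrays it held for 2 of 7 genes, against 12.3% of all genes. Knockout curdlan-treated array 3 was the lowest of its group for Traf1, Traf2, Traf5, Traf6 and Tnfaip3. The share of all genes lowest on that array was not counted. On that array the NF-kB list averaged 10.32, against 10.67 and 10.65 on the other knockout curdlan-treated arrays. The ligand list (8.20, against 8.49 and 8.65), the receptor list (9.18, against 9.46 and 9.44) and the dendritic cell list (11.19, against 11.28 and 11.38) were also lowest there. The macrophage list was highest there (11.60, against 11.48 and 11.50). Without knockout curdlan-treated array 3, Traf1 rose by 1.39 in knockout cells. What these arrays' differences contribute beyond these values was not tested.

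The interaction asks whether the curdlan difference itself depended on genotype. It passed for 0 of 7 genes, where 0.00% of all genes passed in limma, and at an unadjusted p under 0.05 it held 0 of 7 and 552 of 19937 genes. The largest interaction was that of Traf1, at 0.14 (95% interval -0.32 to 0.60), followed in size by Traf6 at -0.11 (-0.42 to 0.20). The intervals of the others were -0.46 to 0.33 for Birc2, -0.36 to 0.38 for Birc3, -0.35 to 0.31 for Traf2, -0.28 to 0.22 for Tnfaip3 and -0.24 to 0.22 for Traf5. For Tnfaip3 and Traf5 both bounds are less than 0.3 from 0, while for Traf1 a difference of up to 0.60 could not be told from 0.

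Between genotypes no gene of the set passed within a treatment. The differences furthest from 0 in untreated cells were those of Traf1, at -0.60, and Birc2, at -0.25, both lower in the mean of knockout cells. With curdlan, 0 of 7 genes passed over all genes in limma, where 0.622% of all genes did (0.517% lower), and 3 of 7 had an unadjusted p under 0.05, against 11.6% of all genes. In untreated cells 0 of 7 passed, where 1.42% of all genes did (1.19% lower), and 2 of 7 had an unadjusted p under 0.05, against 10.6% of all genes. With single arrays left out, 0.0953% (without curdlan-treated wild-type array 2) to 0.863% of all genes passed with curdlan and 0.261% (without untreated wild-type array 2) to 2.24% untreated. The median of the 7 differences was -0.17 with curdlan and -0.12 untreated, against 0.02 and 0.01 over all genes.

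For Traf1 every knockout array was lower than every wild-type array, with and without curdlan. Within a single treatment, such a separation downward held for 6.84% of all genes with curdlan and 7.88% untreated, and upward for 7.71% with curdlan. The share of all genes separated in both treatments was not counted. The difference was -0.46 ± 0.15 (SE, adjusted p 0.228) with curdlan and -0.60 ± 0.15 (SE, adjusted p 0.0773) in untreated cells. In untreated cells, same-numbered knockout and wild-type arrays correlated weakly in their deviations over all genes (0.22, 0.11 and 0.25). Such weak values do not establish a pairing. With the replicate number as a fixed block the untreated Traf1 difference passed (-0.60, adjusted p 0.0207). It did not pass with a random block of estimated correlation (adjusted p 0.0819). That block joins treated and untreated arrays of a genotype, so it does not test the pairing of knockout with wild-type arrays. The untreated Traf1 difference also passed without untreated wild-type array 1 (-0.71, adjusted p 0.046) and without both wild-type arrays numbered 1 (-0.71, adjusted p 0.0484). Over 21 alternatives its adjusted p ranged from 0.0207 to 0.432. Of the 9 dendritic cell markers, 6 had a negative difference in each treatment and 0 passed in limma, with 3 at an unadjusted p under 0.05 with curdlan and 4 untreated. Their list mean was 10.73 to 10.99 on untreated knockout arrays, against 11.04 to 11.13 on untreated wild-type arrays, and with curdlan 11.19 to 11.38 against 11.42 to 11.49. Zbtb46, Ciita, Cd86 and Ccr7 were among the negative ones in both treatments, and Itgax (13.03 in untreated knockout cells, against 12.95 in untreated wild-type cells) was positive in both. Cd86 and Ccr7, which rise as dendritic cells mature, averaged 9.56 and 11.50 in untreated knockout cells, against 10.23 and 11.96 in untreated wild-type cells (adjusted p 0.103 and 0.451, limma). Of 8 macrophage markers, 7 had a positive difference in each treatment and 0 passed in limma, with 0 at an unadjusted p under 0.05 with curdlan and 2 untreated. The macrophage list averaged 11.45 to 11.68 on untreated knockout arrays, against 11.33 to 11.49 on untreated wild-type arrays. The part of these markers in the Traf1 difference was not tested.

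Traf5 differed by 0.22 ± 0.07 (SE, adjusted p 0.253) with curdlan and by 0.23 ± 0.07 (SE, adjusted p 0.207) in untreated cells. The untreated knockout arrays lay above the untreated wild-type arrays, as in 7.55% of all genes, while 1 treated knockout array fell within the treated wild-type range. Birc2 differed by -0.31 ± 0.13 (SE, adjusted p 0.371) with curdlan and -0.25 ± 0.13 (SE, adjusted p 0.58) untreated. Traf2 differed by -0.22 and -0.19 (adjusted p 0.484 and 0.619), and its treated arrays did not overlap between genotypes. The values of Traf6 were -0.17 and -0.06, and those of Birc3 -0.11 and -0.12 (adjusted p from 0.581 to 0.951). Tnfaip3 differed by 0.05 with curdlan (95% interval -0.13 to 0.23) and by 0.08 untreated (-0.10 to 0.25).

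**Figure D3:**
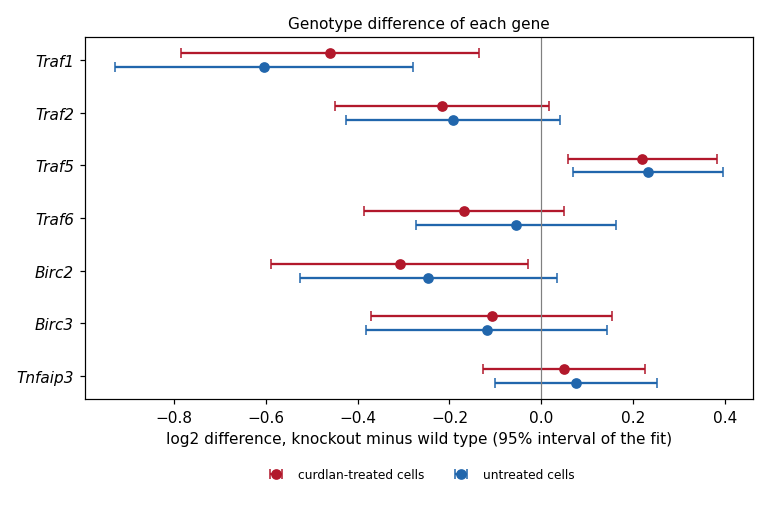
Log2 difference, knockout minus wild type (horizontal axis), of each gene in curdlan-treated and in untreated cells. Points are the fitted differences and bars their 95% intervals. Both intervals of Traf1 lie below 0 and both of Traf5 above 0 before adjustment over all genes.

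Averaged over treatments, a contrast added after the data were seen, Traf1 was lower in knockout cells (-0.53 ± 0.10, SE, adjusted p 0.0134) and Traf5 higher (0.23 ± 0.05, SE, adjusted p 0.0299), 2 of 7 genes, where 5.04% of all genes passed (3.56% lower). This fit counts 12 arrays as separate although, over all genes, same-numbered arrays of a genotype deviate together. With the arrays of each number averaged first, 3 against 3, neither passed (adjusted p 0.0675 for Traf1 and 0.11 for Traf5). The SE of these 2 genes was not larger there, at 0.0940 for Traf1 and 0.0501 for Traf5, against 0.1048 and 0.0527 over 12 arrays. Of 19937 genes, 99 passed with the arrays averaged first, against 1005 over 12 arrays. Why the calls were lost was not tested. The Traf1 call was also lost without both wild-type arrays numbered 2 (0.113) or 3 (0.0544). The Traf5 call was lost in 16 of 27 alternatives (range 0.0135 to 0.217), among them each single array left out other than knockout curdlan-treated 3, wild-type curdlan-treated 1 and wild-type untreated 3.

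By group mean, Traf1, Traf2, Traf6, Birc2 and Birc3 shared 1 order, curdlan-treated wild-type, curdlan-treated knockout, untreated wild-type and untreated knockout cells. For Traf1 each step of that order was free of overlap. For Birc2 every step overlapped. For Birc3 and Traf6 the neighbours within a treatment overlapped, and for Traf2 those in untreated cells. Traf5 and Tnfaip3 had the order curdlan-treated knockout, curdlan-treated wild-type, untreated knockout and untreated wild-type cells. The neighbours within a treatment overlapped for Tnfaip3, and the treated ones for Traf5.

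The genes whose profiles were most like those of the 3 members with the widest range of group means were found by the root mean square difference of centred log2 values over 12 arrays. For Traf1 they were Cd86, a costimulatory ligand (0.12), the transcription factor gene Stat5a (0.14) and the metalloproteinase gene Mmp25 (0.15). For Tnfaip3 they were the carbonic anhydrase gene Car13 (0.081), Dennd3 (0.082) and Ogfr (0.085). For Traf2 they were Akap13 (0.075), Gtpbp2 (0.079) and the phospholipase gene Pla2g4c (0.081).

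Other genes of the pathway, in lists also chosen with earlier results of these data known, were counted in the curdlan contrasts. Counts are over 7 lists, each read against 9.29% of all genes higher and 13.2% lower in knockout cells and 7.27% higher and 12.3% lower in wild-type cells. Of 14 ligand genes, 9 rose and 0 fell in both genotypes, with Tnfsf4, the ligand of OX40, at 1.66 in knockout and 1.83 in wild-type cells and Il1b at 1.38 and 1.66. Of 16 receptor genes, 6 rose and 1 fell in knockout cells and 6 rose and 0 fell in wild-type cells. Cd40, whose tail binds TRAF2, TRAF3 and TRAF6, rose by 2.92 in knockout and 2.37 in wild-type cells. Tnfrsf9, the TRAF1- and TRAF2-binding receptor 4-1BB, rose by 0.82 in knockout and 0.81 in wild-type cells. Tnfrsf4, which encodes OX40, rose by 0.82 in wild-type cells, and its knockout difference was 0.57 (adjusted p 0.0797). Tlr4 fell by 0.33 in knockout cells, and its wild-type difference was -0.26 (adjusted p 0.0716). None of these 3 genes passed the interaction. The number of receptor calls ranged from 2 to 10 in knockout and from 2 to 8 in wild-type cells over the alternatives, and was reduced by more than 1.5 times without curdlan-treated array 1 or 2 of the same genotype and, in knockout cells, without untreated array 1 or 3.

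Of 29 receptor-proximal signalling genes, 10 rose and 3 fell in knockout cells and 9 rose and 3 fell in wild-type cells. Cflar, which blocks caspase-8 at death receptors, rose by 1.13 in knockout and 1.14 in wild-type cells. Rnf31, the catalytic subunit of the linear ubiquitin ligase that the cIAPs recruit, rose by 0.69 and 0.71. Card9, the adaptor below Dectin-1, fell by 0.63 in knockout and 0.71 in wild-type cells. Ube2n, the conjugating enzyme that TRAF6 uses, fell by 0.34 in knockout cells, and its wild-type difference was -0.08 (adjusted p 0.508). The kinase gene Irak1 fell by 0.23 in knockout and 0.22 in wild-type cells. The number of calls ranged from 4 to 16 in knockout cells and from 5 to 15 in wild-type cells over the alternatives, and was reduced by more than 1.5 times without curdlan-treated array 2 of that genotype.

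Of 16 genes listed as A20 partners and deubiquitinases, 5 rose and 2 fell in knockout cells and 6 rose and 2 fell in wild-type cells. Tnip1, which encodes the A20-binding protein ABIN1, rose by 0.75 in knockout and 0.65 in wild-type cells. Usp18, which removes the ubiquitin-like protein ISG15, rose by 1.83 and 1.79. Tnfaip8l2, for which neither role was shown here, fell by 0.19 and 0.27, and Otub2 by 0.20 and 0.28. Calls in knockout cells ranged from 3 to 9 over the alternatives and were reduced by more than 1.5 times without curdlan-treated knockout array 1. Of 10 NF-kB subunit and inhibitor genes, 9 rose and 0 fell in both genotypes, with Nfkbiz at 1.06 in knockout and 1.07 in wild-type cells and Nfkbie at 1.02 and 0.88.

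The relatives of these genes include other TRAF-binding proteins and other inhibitors of apoptosis. Of 12 other TRAF family and TRAF-binding genes, 4 rose and 2 fell in knockout cells and 4 rose and 3 fell in wild-type cells. Trafd1 rose by 0.94 in knockout and 0.83 in wild-type cells, and Azi2, a TBK1-binding adaptor, by 0.55 and 0.59. Traf3ip3 fell by 0.65 and 0.71, and Tifab by 0.63 and 0.51. Of 10 other inhibitor of apoptosis genes and antagonists, 3 rose and 0 fell in knockout cells and 2 rose and 1 fell in wild-type cells. Xaf1, an XIAP antagonist, rose by 1.66 in knockout and 1.91 in wild-type cells, and Htra2, a protease that cleaves these inhibitors, by 0.34 and 0.31. Birc5, which encodes survivin and works in cell division, fell by 1.06 in wild-type cells, and its knockout difference was -0.53 (adjusted p 0.0685). Calls in this list ranged from 1 to 5 in knockout cells and were reduced by more than 1.5 times without curdlan-treated knockout array 2.

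**Figure D4:**
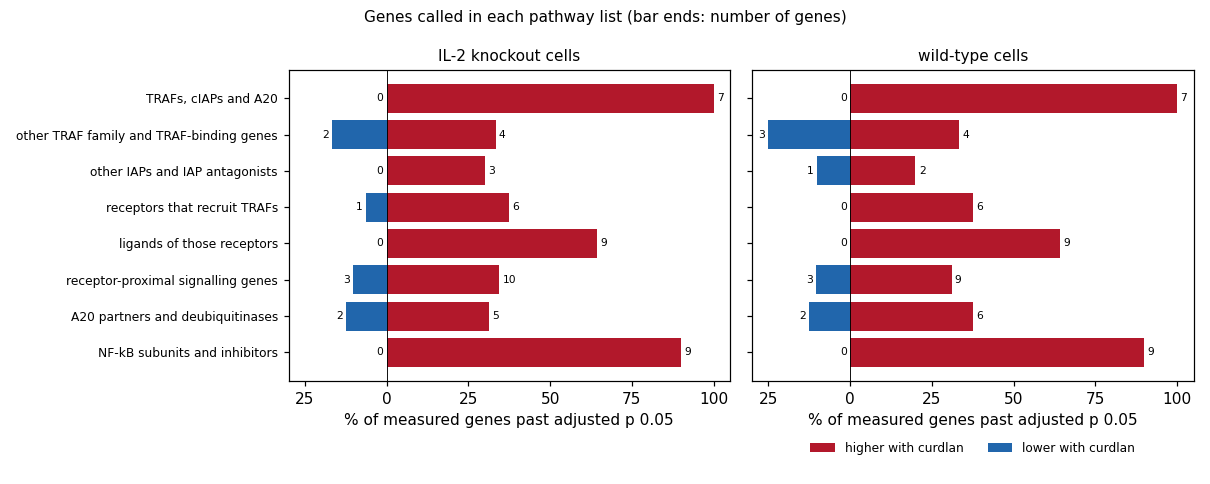
Share of the measured genes of each list past an adjusted p of 0.05 (horizontal axis, percent, higher to the right and lower to the left), in knockout and wild-type cells given curdlan. Numbers at the bars are genes, 7 of 7 for the TRAFs, cIAPs and A20 and 9 of 10 for the NF-kB subunits and inhibitors in both genotypes.

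Of the 107 genes in these 7 lists, 1 passed between genotypes with curdlan (0.935%, against 0.622% of all genes) and 2 untreated (1.87%, against 1.42% of all genes), and each call was sensitive to single arrays. Birc5 was lower in untreated knockout cells (-1.15 ± 0.19, SE, adjusted p 0.017), a call lost in 8 of 21 alternatives, among them without untreated knockout array 1 (0.0627) or 2 (0.0635) or untreated wild-type array 2 (0.0565), over a range of 0.00123 to 0.107. Tnfrsf9 was lower in untreated knockout cells (-0.44 ± 0.09, SE, adjusted p 0.0348), lost without any 1 of the compared arrays other than wild-type array 1 (0.0501 to 0.136 without each), over a range of 0.0128 to 0.175. Tnfsf9, which encodes the ligand of that receptor, was lower in curdlan-treated knockout cells (-0.64 ± 0.11, SE, adjusted p 0.0298), lost without any 1 of the compared arrays other than knockout array 2 (0.0538 to 0.109 without each), over a range of 0.0185 to 0.145. Averaged over treatments, a contrast added after the data were seen, 16 of the 107 genes passed in limma (15%, against 5.04% of all genes). They included 4 of 16 receptor genes and 3 of 10 NF-kB genes, all lower in knockout cells. The other TRAF, other inhibitor of apoptosis and receptor-proximal lists each had 1 gene higher. This fit counts same-numbered arrays of a genotype as separate. With the arrays of each number averaged first, Tnfrsf9 (-0.44) and Tnfsf9 (-0.48) passed in limma (adjusted p 0.0349 each), and no other gene of the lists did. In that fit 99 of 19937 genes passed.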

How the data were processed

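RNA was measured on 12 arrays, and the number of arrays limits the precision. The authors deposited log2 intensities made with RMA, per the submitters' processing notes, which give no version. Of 34760 probe sets, 21640 carried 1 gene symbol, 1321 several and 11799 were not listed. For the 954 genes with several probe sets the highest mean was used, which gave 19937 genes. Group means were fitted with limma 3.58.1 (R 4.3.3) over the 12 arrays together (8 residual degrees of freedom), with a two-sided moderated test, Benjamini-Hochberg adjustment over all genes and a threshold of 0.05. SE is that of the fit and SD that of 3 arrays. The fit was tested on simulated data.

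Same-numbered treated and untreated arrays correlated in their deviations from group means at 0.49, 0.53 and 0.60 in knockout and 0.45, 0.37 and 0.40 in wild-type cells, so the numbers pair them. Between genotypes they correlated at 0.22, 0.11 and 0.25 untreated and at 0.17, -0.13 and 0.33 with curdlan. Different-numbered pairs reached 0.0049 untreated and 0.21 with curdlan. Untreated arrays of the same number thus deviated together only weakly, which does not establish a pairing, and none was shown with curdlan. The fixed replicate block was still fitted between genotypes in each treatment and averaged over treatments, where it rests on that unshown pairing. The members and gene lists were chosen with earlier results of these data known. Named list genes are up to 2 rises and 2 falls past the threshold per list and curdlan contrast, and all calls between genotypes within a treatment. NIK and its targets were named after their values were seen. Promoter sequences and positions are RefSeq's (GRCm38.p6).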

Additional observations from a re-analysis of the deposited data

How the results depend on the processing

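Alternatives were single arrays or both arrays of a number left out, and the replicate number as a fixed block. Others were a random block of the same-numbered treated and untreated arrays of a genotype, and fits on only the arrays compared. The rest were a filter on dim genes, other treatments of probe sets, other scaling and another variance model. For the curdlan contrasts, 111 of 126 single-gene values in knockout and 116 of 126 in wild-type cells kept their direction and side of the threshold, and none turned. The fixed replicate block changed no curdlan call. Without both knockout arrays numbered 1, 3 of 7 genes passed in knockout cells, where 1079 of 19937 genes did, against 4481 with all arrays. Over all arrays left out the count of the set was 3 to 7. Between genotypes in untreated cells the count was 1 with the replicate block, which is Traf1, and 0 to 1 over arrays left out. Over all genes 393 passed with that block, against 283 without it. Averaged over treatments, the count of the set was 3 with the replicate block, 1 with the random replicate block and 1 with every probe set tested. It was 0 with the arrays of a number averaged first, and 0 to 4 over arrays left out. Of all 19937 genes, 1621 passed with the replicate block and 682 with the random block. With every probe set tested 630 passed, and with arrays averaged first 99, against 1005 in the main fit. No genotype or interaction value that turned direction was a call. Over arrays left out, Tnfaip3 with curdlan ranged from -0.0097 to 0.138 between genotypes and Traf6 untreated from -0.142 to 0.0247. Interaction values ranged from -0.0330 to 0.30 for Traf1, -0.12 to 0.0927 for Traf2, -0.0785 to 0.0785 for Traf5, -0.15 to 0.0550 for Birc2, -0.11 to 0.15 for Birc3 and -0.11 to 0.0930 for Tnfaip3. Of 875 list counts, 152 moved by over 1.5 times. In the curdlan contrasts these were, in knockout cells, 6 alternatives for receptors, 4 for other inhibitors of apoptosis (1 to 5 calls over all alternatives, against 3), 4 for A20 partners (3 to 9 over all alternatives, against 7) and 3 for receptor-proximal genes, and in wild-type cells 4 for receptors and 3 for receptor-proximal genes. Ligand, NF-kB and other TRAF counts stayed within 1.5 times in both. Calls over all genes moved as well with single arrays left out, from 2041 to 5284 (all arrays, 4481) for curdlan in knockout cells, 19 to 172 (all arrays, 124) between genotypes with curdlan, 52 to 447 (all arrays, 283) untreated and 536 to 1209 (all arrays, 1005) averaged over treatments. The cause of these changes was not tested, beyond fewer arrays where arrays were left out.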

Other observations

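Map3k14, which encodes NIK, the kinase that TRAF2, TRAF3 and the cIAPs hold back, was singled out with Relb and Nfkb2, the subunits NIK activates, after their values were seen, so their genotype values are a description with no test. Map3k14 had 9.03, 9.15 and 8.62 in curdlan-treated knockout cells, against 9.42, 9.62 and 9.47 in curdlan-treated wild-type cells. Untreated knockout cells had 8.25, 8.60 and 8.46, against 8.73, 9.15 and 9.14 in untreated wild-type cells. Knockout arrays lay below wild-type arrays in both treatments for these 3 genes, and also for the dendritic cell markers Cd86 and Zbtb46. Within a single treatment this separation was found for 6.84% of all genes with curdlan and 7.88% untreated. The share of all genes separated in both treatments was not counted. The part of these markers in these values was not tested. The differences between knockout and wild-type cells were -0.57 with curdlan and -0.57 untreated for Map3k14, -0.45 and -0.47 for Relb, and -0.26 and -0.30 for Nfkb2. With curdlan Map3k14 rose by 0.50, Relb by 0.83 and Nfkb2 by 0.73 in knockout cells, and by 0.50, 0.81 and 0.69 in wild-type cells. For all 10 NF-kB subunit and inhibitor genes the difference between knockout and wild-type cells was negative in both treatments, with a median of -0.19 with curdlan and -0.24 untreated, against 0.02 and 0.01 over all genes. In limma 0 of 10 passed in either treatment. An unadjusted p under 0.05 held for 5 of 10 in each, against 11.6% of all genes with curdlan and 10.6% untreated. Averaged over treatments, 3 of 10 passed in limma, all lower in knockout cells, where 5.04% of all genes passed. With the arrays of each number averaged first, the lowest adjusted p of the 10 genes was 0.0557 (Relb).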
